A study of Caenorhabditis elegans with 2 samples.

Results

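Nuclear tRNA genes were examined as binding sites of D1046.2 in Caenorhabditis elegans. They were all 612 genes that the Ensembl annotation of the WBcel235 (ce11) genome classes as tRNA on chromosomes I to V and X, out of 634 annotated with the 22 mitochondrial ones, and each was extended by 500 bp on both sides. A gene was counted as bound when this window held the summit, the position of highest signal, of at least 1 of the 1546 conservative peaks. By that rule 299 genes were bound, or 48.9% (95% Wilson interval 44.9 to 52.8), and 313 were not.

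The peaks come from ChIP-seq of whole L4 larvae at 50 hours of age, grown from L1 larvae starved after bleaching. The strain, OP397, carries the integrated transgene wgIs397, in which D1046.2 is fused to TY1, EGFP and 3xFLAG tags within the clone 91F09, together with unc-119(+) as a rescue marker in the unc-119(tm4063) mutant background. Both libraries share this genotype and were made with an antibody to GFP after sonication. There was 1 group with 2 biological replicates and no second condition, so every comparison sets genes against other genes of the same experiment. The signal is summed over all tissues of the animal, so the cells in which a gene was bound cannot be told apart.

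tRNA genes are transcribed by RNA polymerase III. Their promoter lies inside the transcribed sequence: TFIIIC recognises the A box and the B box, which correspond to the D arm and the T arm of the tRNA, and brings TFIIIB to the DNA just upstream, where the polymerase is recruited. Transcription ends in a short run of T on the coding strand just downstream of the gene. Genes for one tRNA are usually present in many copies, often with exactly the same sequence, and in worms a large share of them lies on the X chromosome.

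The sequences that the results turn on are printed from the RefSeq sequence of WBcel235, 5′ to 3′ on the strand of the gene. The stretch shown first holds a pair of alanine tRNA genes under 1 strong summit, with both genes in capitals. The next 3 are genes with a strong summit in their window, which for the proline gene lay inside a neighbouring lysine gene. The proline and the threonine gene have identical copies that were not bound. The last 3 differ from every other tRNA gene by 10 or more bases and were not bound. In the single genes capitals mark the anticodon, where it was assigned, and the match to the B box motif GTTCNANNC, where there is one.
F15G9.t1 and F15G9.t2, Ala-TGC and Ala-AGC, chrX:9743589-9743818, plus strand: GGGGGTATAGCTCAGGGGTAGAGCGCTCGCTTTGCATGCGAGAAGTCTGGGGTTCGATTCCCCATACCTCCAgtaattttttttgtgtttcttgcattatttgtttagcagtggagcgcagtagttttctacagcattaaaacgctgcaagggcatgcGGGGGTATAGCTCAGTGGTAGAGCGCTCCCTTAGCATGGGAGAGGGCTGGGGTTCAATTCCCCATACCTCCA
F44A2.t1, Ala-CGC, chrV:9318202-9318273, plus strand: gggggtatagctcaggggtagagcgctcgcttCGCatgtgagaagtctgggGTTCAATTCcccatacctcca
T23F1.t2, Pro-TGG, chrV:15465225-15465296, minus strand: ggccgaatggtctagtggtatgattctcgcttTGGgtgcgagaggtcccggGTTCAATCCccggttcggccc
Y39A1A.t1, Thr-AGT, chrIII:10624742-10624813, minus strand: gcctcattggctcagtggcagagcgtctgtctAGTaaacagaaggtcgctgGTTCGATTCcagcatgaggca
K11H12.t1, selenocysteine tRNA, chrIV:658181-658266, plus strand: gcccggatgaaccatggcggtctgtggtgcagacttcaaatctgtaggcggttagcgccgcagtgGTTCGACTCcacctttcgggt
W05B2.t1, annotated as Arg, chrIII:10961850-10961917, minus strand: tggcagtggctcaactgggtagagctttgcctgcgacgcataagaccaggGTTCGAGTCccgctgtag
Y113G7B.t1, annotated as His, chrV:20219301-20219370, plus strand: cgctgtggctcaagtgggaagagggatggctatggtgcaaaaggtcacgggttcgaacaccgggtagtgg

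The sequences of the annotated genes were searched for letters of the promoter and the terminator, which describes them and is no independent check of the annotation. The letters GTTCNANNC were searched in each gene on its own strand and were found in 587 of 612 genes (95.9%), with a median start at base 53 of the gene. Among 106921 windows of 72 bp at the summits of all candidate regions, 2.99% held them on either strand. The letters TTTT were found within 50 bp downstream of 605 genes (98.9%) on the gene strand, against 42.4% of 50 bp windows at candidate summits on 1 strand. Genes were 64 to 122 bp long with a median of 72 bp. RefSeq gave all 612 the same coordinates and named the amino acid, here called the isotype, for 607 of them.

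The bound share can be read against other places in the same list. A conservative summit lay within 500 bp of 20.5% of snoRNA genes, 13.2% of snRNA genes, 6.51% of miRNA genes and 2.6% of protein-coding 5' ends. Windows reached 500 bp beyond both ends of an RNA gene and 500 bp to each side of a protein-coding 5' end, so their lengths differ. Of all 106921 candidate regions, the places where peak calling began, 1.45% were in the conservative list. Conservative summits occurred at 0.0154 per kb over the 6 chromosomes. These are descriptions, since windows of neighbouring genes overlap, and no test was made between the classes.

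The 299 bound genes shared 257 summits. Of these, 207 lay near exactly 1 tRNA gene, 45 near 2 and 5 near 3 or more. The signal given here is the authors' deposited value per peak, in units that no source used here states. Its median was 115 for the summits near tRNA genes and 92.3 for the other 1289, but the very strongest peaks were elsewhere. The first of the summits near tRNA genes ranked at 65 of 1546 by signal. They made up 4% of the ranks 1 to 100, 27% of the ranks 101 to 200, 35.5% of the ranks 201 to 400, 25.5% of the ranks 401 to 800 and 7.10% of the ranks 801 to 1546. Below the first 100, most peaks at tRNA genes were thus in the upper part of the list, with a median rank of 465. A promoter of a protein-coding gene, from 500 bp upstream to 100 bp downstream of an annotated 5' end, held 37 of the 257 summits (14.4%), against 360 of the other 1289 (27.9%).

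At isolated genes most summits lay inside the tRNA gene. Over all bound genes the summit nearest to the gene was a median of 25 bp downstream of the gene's 5' end (quartiles -2 and 51.5 bp), and 58.5% of these summits were inside the gene. The position is clearest in the 376 isolated genes, those with no other tRNA gene within 1000 bp, of which 168 were bound. Their median was 28 bp (quartiles 10 and 50 bp), with 119 summits (70.8%) inside the gene, 27 upstream and 22 downstream, and 166 (98.8%) in the gene or within 100 bp of it. Per kb of sequence at isolated genes there were 4.19 summits in the genes, 0.718 in the 100 bp upstream and 0.532 in the 100 bp downstream. From 101 to 250 bp the density was 0.0177 upstream and 0.106 downstream, and beyond 250 bp there were 0 summits in 188 kb, both sides together. At the 131 bound genes with a tRNA gene within 1000 bp the summits were spread more widely: 42.7% were inside the gene, 38.2% upstream and 71.0% in the gene or within 100 bp, with positions from -426 to 553 bp. Such a summit can lie on the neighbour. With windows of 200 bp, 279 of all 612 genes were bound.

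**Figure D1:**
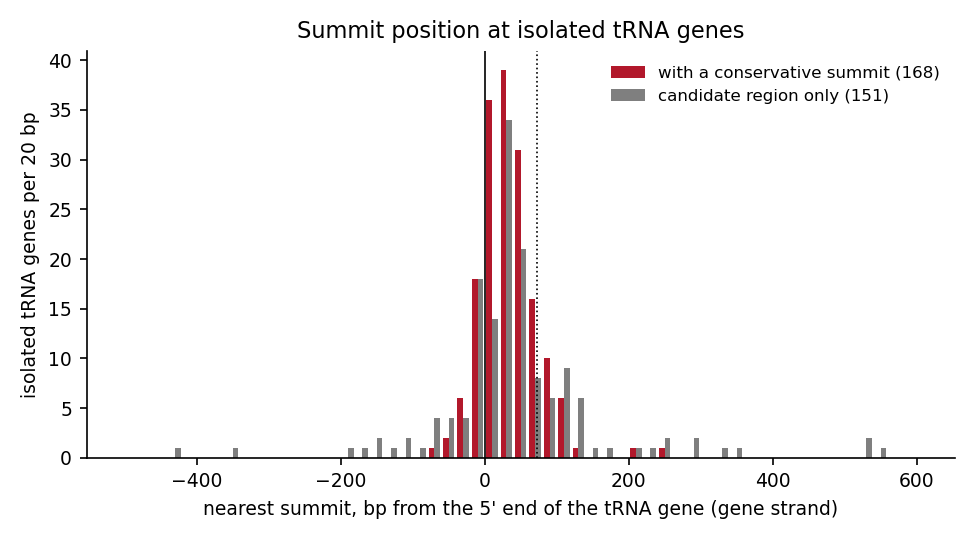
The plot counts isolated tRNA genes by the distance in bp of the nearest summit from the gene's 5' end along the gene strand, in steps of 20 bp, for bound genes and for genes with a candidate region only. The solid line is the 5' end and the dotted line the median gene length of 72 bp; bound genes pile up inside the gene, with 119 of 168 summits there.

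Each replicate's own thresholded list placed the summit in the same region. At isolated genes the median was 22 bp in replicate 1 (89 genes) and 39 bp in replicate 2 (88 genes), and in both lists all of these summits were in the gene or within 100 bp of it. Genes on the plus strand had a median of 28 bp and those on the minus strand 31 bp. In the 31 isolated bound genes of 80 bp or more the median was 39 bp. Between the replicates' own candidate regions the summit at a bound gene moved by a median of 24 bp, and for 224 of 297 genes by at most 50 bp.

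The highest signal belonged to a pair of genes on the X chromosome that lie 116 bp apart in opposite orientation. M02F4.t1 (Gly-TCC, chromosome X, 3036164 to 3036235, plus strand) and M02F4.t2 (Glu-CTC, 3035976 to 3036047, minus strand) shared 1 summit with a signal of 267 in the joint call, 133 in replicate 1 and 130 in replicate 2. Its summit was 11 bp upstream of the glycine gene and 106 bp upstream of the glutamate gene. Glycine and glutamate tRNA genes were thereby given the same value, which cannot be divided between them.

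The alanine pair printed above followed. F15G9.t1 (Ala-TGC, chromosome X, 9743589 to 9743660) and F15G9.t2 (Ala-AGC, 9743747 to 9743818) lie 86 bp apart in an intron of him-4, which encodes hemicentin, an extracellular matrix protein. Their summit had a signal of 248, with 117 in replicate 1 and 121 in replicate 2, and fell on base 73 of the printed stretch, the first base after the first gene. Another Ala-TGC gene, T07H6.t2 (chromosome X, 6292278 to 6292349, minus strand), stands 5885 bp from the nearest other tRNA gene and had 238, with 112 and 130 in the replicates. Its summit was inside the gene, 48 bp from the 5' end.

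Genes with no near neighbour also reached high signals. C33G3.t2 (Lys-TTT, chromosome X, 14063946 to 14064018, minus strand) had 224, with 121 and 106 in replicates 1 and 2. F41D9.t3 (Asn-GTT, chromosome X, 8404499 to 8404571) had 209, with 111 and 99.3, in an intron of sulp-3, a gene of the sulfate permease family. R01H5.t1 (Thr-TGT, chromosome X, 12563788 to 12563859) had 207, with 108 and 96.5. These 3 summits were 14, 6 and 38 bp from the 5' ends, all inside the genes. Counting a tie at the last place, 11 genes had the highest signals, and the 8 of them on the X chromosome lay under 6 summits. The others were on chromosome V. F44A2.t1 (Ala-CGC, chromosome V, 9318202 to 9318273), the only one of the 11 with no identical copy, had 208 with 113 and 101 in the replicates. T23F1.t1 (Lys-TTT, chromosome V, 15465086 to 15465158) had 200 with 106 and 94.95 and shared its summit with T23F1.t2 (Pro-TGG), 66 bp away. That summit lay inside T23F1.t1, 58 bp from its 5' end. It was 152 bp from the 5' end of T23F1.t2 and outside the proline gene.

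The highest value of each further isotype ranged from 119 to 200. C37A2.t1 (Cys-GCA), in an intron of the cyclin E gene cye-1 on chromosome I, had 196, and the methionine tRNA gene C02F12.t1 on the X chromosome had 193. C04A11.t1 (Leu-CAA), whose sequence holds an intron of its own, had 191 with 83.1 in replicate 1 and 109 in replicate 2. Between these and the lowest came T09B4.t1 (Ile-AAT, 185), R04D3.t2 (Val-TAC, 180), C06G1.t1 (His-GTG, 173), F14B4.t1 (Arg-TCG, 169), C02B4.t2 (Tyr-GTA, 166) and K02D7.t1 (Asp-GTC, 165). At the lower end, C03B1.t1 (Trp-CCA) had 158, ZC455.t1 (Ser-TGA) had 155 and K05G3.t1 (Phe-GAA) had 119. The weakest bound genes were F28F5.t1 (Asn-GTT, 59.8, in an intron of lim-8), C25F6.t2 and C25F6.t3 (Met-CAT, a shared 62.8 with the summit inside C25F6.t3), F02E11.t1 (Ser-AGA, 74.7) and F28H6.t7 (His-GTG, 76.3). The last shared its value with F28H6.t2, which lay under the summit, 46 bp from the 5' end, while F28H6.t7 was 288 bp away. The bound genes as a whole had a median of 115 with quartiles of 99.6 and 138.

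Isotypes differed in the share bound, with wide intervals. Glycine had the highest share, 35 of 55 genes (63.6%, interval 50.4 to 75.1), followed by alanine with 21 of 34, cysteine with 8 of 13, methionine with 12 of 20 and glutamate with 24 of 41. Tryptophan had the lowest share of the amino acids with more than 1 gene, 2 of 12 (16.7%, 4.70 to 44.8), then valine with 10 of 31 (32.3%, 18.6 to 49.9), phenylalanine with 5 of 14, isoleucine with 11 of 29 and arginine with 17 of 44. The intervals of neighbours in this order overlap, and most include the share over all tRNA genes, 48.9%. Glycine lies above it with its whole interval and tryptophan below it. The intervals count every gene separately and are not adjusted for the number of isotypes, so they alone do not show a difference. Neighbouring glycine genes can be bound through the same summit, as F49D11.t1 and F49D11.t2 were (signal 157). No test was made between isotypes, and copies of a gene with the same sequence are not independent.

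**Figure D2:**
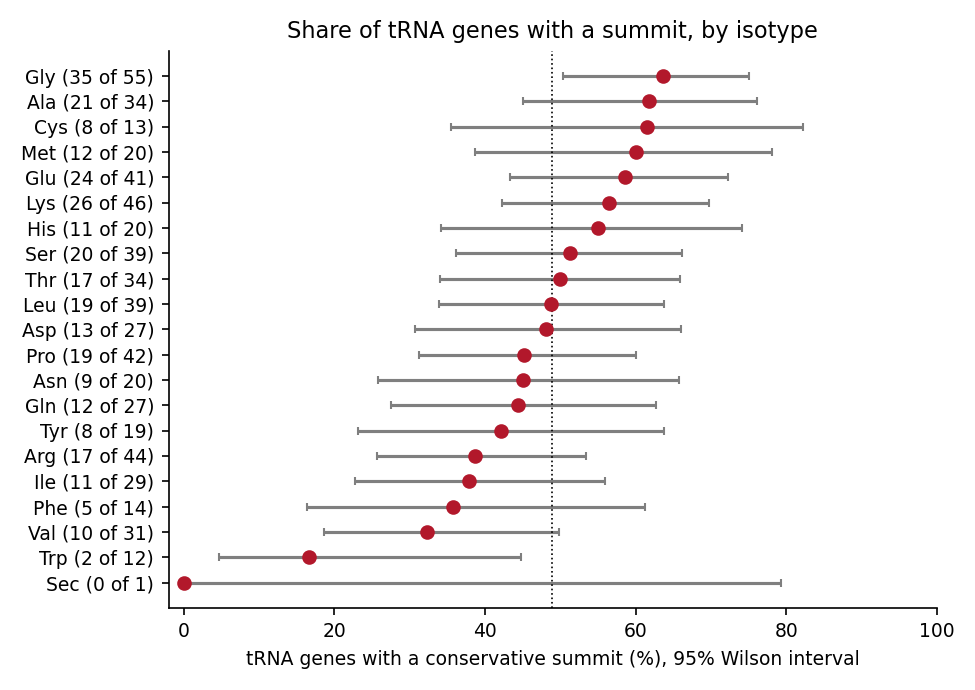
Points give the share of tRNA genes with a conservative summit for each isotype, with 95% Wilson intervals as bars and counts in the labels; the dotted line is the share over all 612 genes. Glycine (35 of 55) stands highest and tryptophan (2 of 12) lowest among amino acids with more than 1 gene, and most intervals cross the line.

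Genes of an isotype were also counted by anticodon, the triplet that pairs with the codon, with no test between anticodons. The files and annotations used here name no anticodon, so it was read from the sequence and could be assigned to 586 genes. Of these, 297 (50.7%) were bound. For glycine, Gly-TCC had 25 of 36 genes bound and Gly-GCC 10 of 15, while 0 of 3 Gly-CCC genes were bound (interval up to 56.1%) and none of these 3 had a candidate region. These 3 are identical copies in introns of the same host, pash-1 on chromosome I, and so are not separate observations of the anticodon. For valine, Val-AAC had 4 of 19 bound (21.1%, 8.51 to 43.3) and Val-CAC 4 of 6 (66.7%, 29.999 to 90.3), and these intervals overlap. The other 5 assigned valine genes were Val-TAC, of which 2 were bound. Methionine tRNA genes of the initiator type, which starts translation, had 6 of 10 bound, and those of the elongator type 6 of 9. Of the 28 Tyr, Leu-CAA and Ile-TAT genes in which an intron beside the anticodon was recognised, 14 were bound.

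Genes of identical sequence were bound at some sites and not at others. The 612 genes held 200 distinct sequences, of which 57 occurred more than once and made up 469 genes. Of these 57 sequences, 4 were bound at every copy, 8 at none and 45 at some. All 20 sequences with 10 or more copies were of this mixed kind, with 20% to 75.9% of copies bound. The sequences bound at every copy or at none had only 2 to 4 copies. With 48.9% of all tRNA genes bound, a large set would mostly hold both kinds in any case, so the mixture alone is no finding about these sequences. The tRNA sequence itself, internal promoter included, is the same within such a set, but its flanks are not compared here. Bound is a threshold call on a window, and a copy can be bound through a summit at a neighbour. With each summit counted for its nearest tRNA gene only, 208 of the 469 repeated genes were bound, in place of 246. What sets the copies apart was not tested.

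The most abundant sequence, Gly-TCC with 29 copies, was bound at 22, and the strongest candidate signal near its copies ran from 44.3 to 267 over the 27 that had one. At the top was M02F4.t1, while Y57G11B.t1 on chromosome IV (14576622 to 14576693) had no candidate region in the joint list and 28.4 in replicate 1 alone. Lys-CTT, with 25 copies, was bound at 16. Its strongest copy, W03G11.t1 on chromosome X (12106147 to 12106219), had 188 with 101 and 84.7 in the replicates, and Y105C5A.t1 on chromosome IV (15793415 to 15793487) had no candidate in any of these lists. Pro-TGG, with 24 copies and the sequence printed for T23F1.t2, was bound at 10, with candidate signals from 39.3 to 200 over 20 copies. The value of 200 was that of T23F1.t2, whose summit lay inside the neighbouring lysine gene T23F1.t1. The Pro-TGG copy F02H6.t1 on chromosome IV (14225102 to 14225173) had 55.0 in replicate 1 and no candidate in replicate 2 or the joint list. Every one of these 3 sets had copies with a strong summit beside copies with no region in the joint list.

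Other large sets were mixed as well. Asp-GTC was bound at 9 of 21 copies, Glu-CTC at 12 of 20, Ile-AAT at 7 of 19, Asn-GTT at 9 of 18, Ala-AGC at 9 of 15 and Thr-AGT, the printed sequence of Y39A1A.t1, at 8 of 15. Trp-CCA had the lowest share, 2 of 10. Reads from a short gene with identical copies can be placed only through the sequence that flanks it, and the sources used here do not say how such reads were placed. No candidate region was found at 48 of the 469 repeated genes and at 16 of the 143 unique ones. The part of read placement in the shares was not tested.

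**Figure D3:**
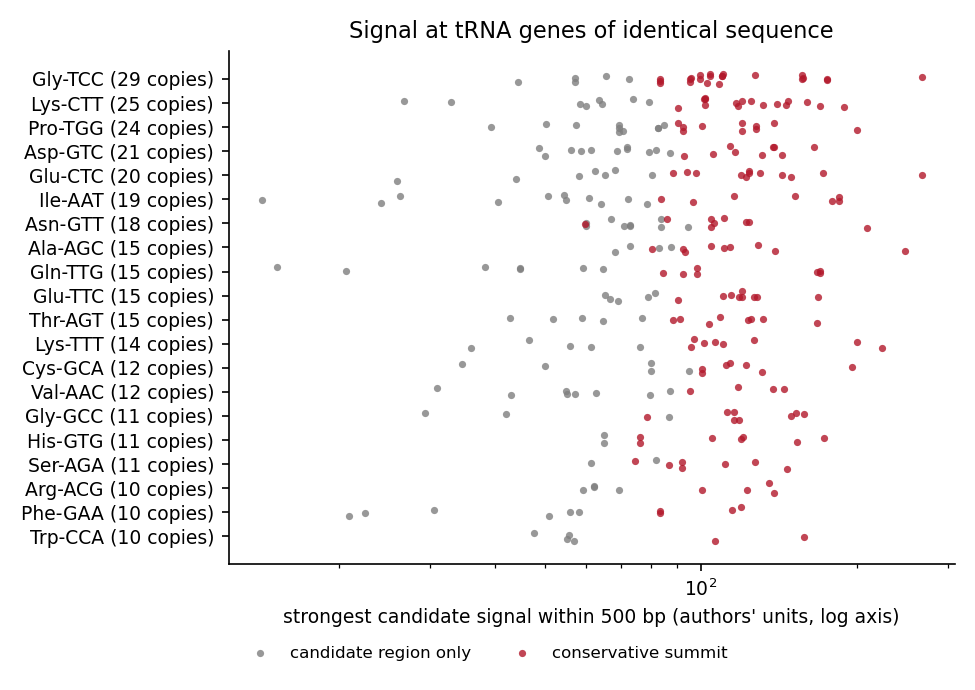
Each point is 1 tRNA gene, placed by the strongest candidate signal within 500 bp (authors' units, log axis), in the 20 sequences with 10 or more identical copies; copies with no candidate region have no point. Bound and unbound copies occur in every set, from 2 of 10 bound for Trp-CCA to 22 of 29 for Gly-TCC.

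Genes with an identical copy were bound more often than genes of unique sequence. The share was 52.5% (246 of 469) for repeated and 37.1% (53 of 143) for unique sequences, a difference of 15.4 percentage points (6.06 to 24.1; two-sided Fisher's exact test, adjusted p = 0.00939). This and the 5 tests below were adjusted together by the Benjamini-Hochberg method with a threshold of 0.05, and they treat each gene as independent although neighbours and copies are not. Without the genes that differ from every other tRNA gene by 10 or more bases, the difference was 9.71 points and no longer passed (Fisher's exact test, adjusted p = 0.168); this alternative was added once the values were known.

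The unique genes were not alike. Those 1 base away from their nearest other tRNA gene were bound at 28 of 60, those 2 away at 11 of 23 and those 3 to 9 away at 14 of 41. Of the 19 genes with 10 or more differences, 0 were bound, which allows a share of up to 15.8% (counting error only). These steps were chosen after the values were seen and carry no test. Of the 19, 16 had a candidate region, with a median signal of 33.5, against 92.2 for the genes with an identical copy. Protein-coding 5' ends with a candidate but no conservative summit had a median of 34.8. A candidate region lay within 500 bp of 69.3% of all protein-coding 5' ends.

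The 19 include K11H12.t1 (chromosome IV, 658181 to 658266), the gene of the selenocysteine tRNA, which reads a stop codon in selenoprotein messages. It lies in an intron of K11H12.8 and had a candidate signal of 55.4, with 33.3 in replicate 1 and 21.4 in replicate 2. W05B2.t1 on chromosome III had the highest of the 19, 66.9 with 30.4 and 32.5. Its nearest candidate summit was 144 bp from the 5' end and so outside the 68 bp gene. Y113G7B.t1 on chromosome V, whose printed sequence holds no match to GTTCNANNC, had 32.0 with 21.8 and 20.9. All 5 genes for which RefSeq names no amino acid are also among the 19. Whether these genes give tRNA cannot be read from peak lists.

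**Figure D4:**
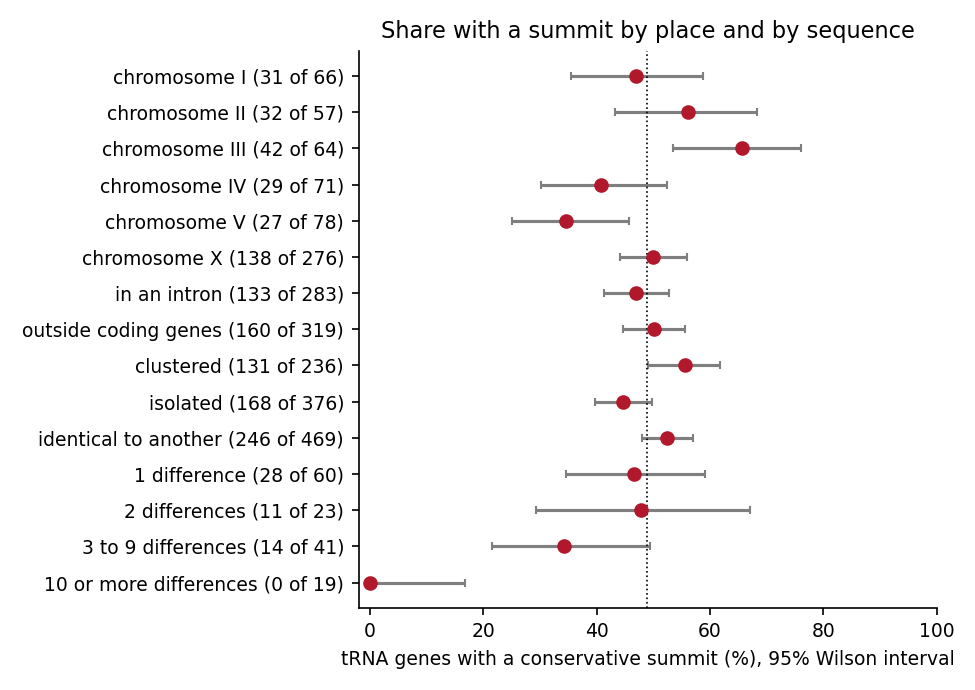
Points give the share of tRNA genes with a conservative summit, with 95% Wilson intervals as bars and counts in the labels, by chromosome, by place and by the number of base differences to the nearest other tRNA gene; the dotted line is the share over all 612 genes. Chromosome III (42 of 64) is highest and the genes with 10 or more differences (0 of 19) lowest.

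The X chromosome holds 276 of the 612 tRNA genes (45.1%), and its genes had a bound share that did not differ from the autosomes past the threshold. The share was 50.0% (138 of 276) on the X chromosome and 47.9% (161 of 336) on the autosomes, a difference of 2.08 points (-5.84 to 9.98; two-sided Fisher's exact test, adjusted p = 0.752). With windows of 200 bp the sign turned (-0.543 points). Of the 257 summits near tRNA genes, 43.6% (37.7 to 49.7) were on the X chromosome, against 14.1% (12.3 to 16.1) of the other 1289 and 16.8% of all candidate regions.

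Among the autosomes the shares ran over a wider range. Chromosome III had 42 of 64 genes bound (65.6%, 53.4 to 76.1), chromosome II 32 of 57, chromosome I 31 of 66, chromosome IV 29 of 71 (40.8%, 30.2 to 52.5) and chromosome V 27 of 78 (34.6%, 25.01 to 45.7). The X chromosome lay 15.6 points below chromosome III and 15.4 points above chromosome V, and neither difference passed (two-sided Fisher's exact test, both adjusted p = 0.0661 over the 5 autosomes). Candidate regions were found at all 64 genes of chromosome III but at 49 of the 71 of chromosome IV, so that chromosome IV held 22 of the 64 tRNA genes with no candidate region.

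The place of a gene within a protein-coding gene made no difference past the threshold. Of 283 tRNA genes wholly inside an intron, 133 were bound (47.0%), and of 319 outside protein-coding genes 160 were bound (50.2%), a difference of -3.16 points (-11.1 to 4.81; two-sided Fisher's exact test, adjusted p = 0.694). In either replicate's own list the sign turned (1.62 and 1.42 points). The 10 genes that touch an exon or a gene's edge, 6 of them bound, were left out. Genes on the same strand as the host were bound at 75 of 160 and those on the opposite strand at 58 of 122.

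The intronic genes lay in 219 hosts, of which 173 held 1 tRNA gene. The largest number per host was 5, in ajm-1, which encodes a protein of epithelial junctions, and in K01A12.3, both on the X chromosome. All 5 were bound in ajm-1 and 3 of 5 in K01A12.3. The glutamine tRNA gene H08J11.t2, in an intron of ajm-1, shared the highest signal of its isotype, 169, with the glutamine tRNA genes H08J11.t3 and H08J11.t4 of the same host. Their common summit lay inside H08J11.t3, 34 bp from its 5' end, and 284 bp from that of H08J11.t2. The nearest protein-coding 5' end was a median of 1337 bp from bound and 1635 bp from unbound tRNA genes. Hosts with 3 genes had all, some or none of them bound. All 3 were bound in brd-1, pix-1 and srv-16, and 0 of 3 in deg-1, nimk-1, pash-1, unc-58 and wrt-9. In pxn-1 and spe-9 1 of 3 was bound, and in srxa-9 and tbc-12 2 of 3. The neighbours K04C2.t1 and K04C2.t2 in brd-1 were bound through 1 shared summit, which lay outside both genes. Near genes share much of their windows, so their calls are not independent. A difference between hosts was not tested.

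Clustered genes, those with another tRNA gene within 1000 bp, were bound more often in the main count. The share was 55.5% (131 of 236) against 44.7% (168 of 376) for isolated genes, a difference of 10.8 points (2.69 to 18.8; two-sided Fisher's exact test, adjusted p = 0.0301). The result depended on how a summit was shared out: when each summit counted for its nearest tRNA gene only, the difference was -9.51 points (adjusted Fisher's exact p = 0.0678), and with windows of 200 bp it was 2.35 points (adjusted Fisher's exact p = 1.00). With windows of 1000 bp, in which neighbours share more summits, it was 22.002 points. It was 2.18 points in replicate 1 alone and -0.947 in replicate 2 alone, and 9.19 without the genes of 10 or more differences (adjusted Fisher's exact p = 0.168).

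Genes of a locus mostly had the same call, either all bound or none. The 612 genes formed 476 loci, of which 235 (49.4%) had a summit; 376 were single genes and 100 held 2 to 6 genes. Of the 100, all genes were bound in 47, none in 33 and some in 20. Of the 78 pairs, both genes were bound in 43, neither in 27 and 1 in 8. In 35 of the 43 pairs with both genes bound, both had the same strongest summit, and in 8 they had different ones. A window of 500 bp around each of 2 near genes covers much of the same sequence, and how the protein was divided between such genes cannot be told from 1 summit.

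The letters of the internal promoter and the terminator gave no difference past the threshold. Genes with a GTTCNANNC match were bound at 286 of 587 (48.7%) and the 25 without at 13 (52.0%), a difference of -3.28 points (-21.7 to 15.7; two-sided Fisher's exact test, adjusted p = 0.839). The sign turned with windows of 200 or 1000 bp (1.66 and 1.49 points). The 25 genes without a match include methionine and Pro-AGG genes, both bound and unbound. Only exact letters were searched, so a gene without a match can still hold a B box of other letters. The comparison therefore does not show whether binding depends on the internal promoter. Genes with TTTT within 50 bp downstream were bound at 298 of 605 and the 7 without at 1, a difference of 35.0 points (-2.27 to 47.3; two-sided Fisher's exact test, adjusted p = 0.247). Both intervals are wide, because nearly all tRNA genes hold these letters.

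Most unbound genes had weaker regions below the threshold. A candidate region lay within 500 bp of 548 tRNA genes (89.5%), the 299 bound ones included. It did so for 69.3% of protein-coding 5' ends, whose windows are shorter by the length of a tRNA gene. Of the 313 unbound tRNA genes 249 had a candidate region and 64 none. Of the 19973 protein-coding 5' ends 520 had a conservative summit, and 13325 of the rest had a candidate region, so candidates were common at unbound places of both kinds. The strongest candidate at the 249 had a median signal of 58.7 (quartiles 43.0 and 70.1). At the 13325 protein-coding 5' ends that had a candidate but no conservative summit the median was 34.8 (quartiles 24.5 and 46.9), taken in the same way. At isolated unbound genes the nearest candidate summit lay a median of 34 bp from the 5' end, with 77 of 151 (51.0%) inside the gene. Candidates that did not pass occurred at 2.71 per kb in isolated tRNA genes and 1.05 per kb over the 6 chromosomes.

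The threshold is one of the irreproducible discovery rate (IDR), an estimate of how likely a region is not to recur between replicates, and all conservative peaks had a global IDR of 0.01 or less. The IDR given for a gene is the lowest in its window. Each signal is the highest there in its list, so these values can stem from different regions. Of the 249 unbound genes with a candidate, 74 had an IDR from 0.01 to 0.05, 43 from 0.05 to 0.1 and 131 above 0.1. The 1 remaining gene, Y95D11A.t1, had an IDR of 7.61e-05 at a region that the conservative list does not hold. Just inside the threshold, C25F6.t2 and C25F6.t3 had an IDR of 0.00985. Just outside it, T25E4.t1 (Val-TAC, chromosome II) had 95.4 with 60.7 in replicate 1 and 31.0 in replicate 2, and an IDR of 0.0136. K04A8.t3 (Cys-GCA, chromosome V) had 94.7 with 30.7 and 64.3, and an IDR of 0.0148. These unbound genes had a higher joint signal than the weakest bound ones. F47G6.t1 (Arg-TCT, chromosome I) had 106 with 48.2 and 55.6, and an IDR of 0.0819, and T09F5.t1 (Asn-GTT, chromosome V) had 94.3 with 30.1 and 59.2, and an IDR of 0.0179.

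Each replicate alone called far fewer genes than both together. The own list of replicate 1 had a summit near 150 tRNA genes (24.5%) and that of replicate 2 near 141 (23.0%), where 0.65% and 0.475% of all their candidate regions passed. The lists shared 77 genes, which is 51.3% of the genes of replicate 1 and 54.6% of those of replicate 2, and 214 genes were in either. Of the 299 conservative genes, 76 were in both lists, 120 in exactly 1 and 103 in neither. The optimal list, the other deposited combination, had a summit near 308 genes, 277 of them shared with the conservative list.

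Across the 530 genes with a candidate region in both replicates' ranked lists, Spearman's rho between the signals was 0.682 and Pearson's r of their log10 values 0.670. Within the 297 bound genes rho was 0.438 and within the 233 unbound genes 0.131. Bound genes had medians of 57.5 and 57.9 in replicates 1 and 2, and unbound genes 29.1 and 31.0. For 250 of the 297 bound genes (84.2%) both values lay within 1.5-fold of each other, against 120 of the 233 unbound genes (51.5%). Bound genes were chosen by how well these same signals recur, so the coefficients, medians and shares given for bound and unbound genes apart follow in part from the rule and carry no test. The points are genes of the same 2 libraries and not independent replicates, and neighbours can share a region.

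**Figure D5:**
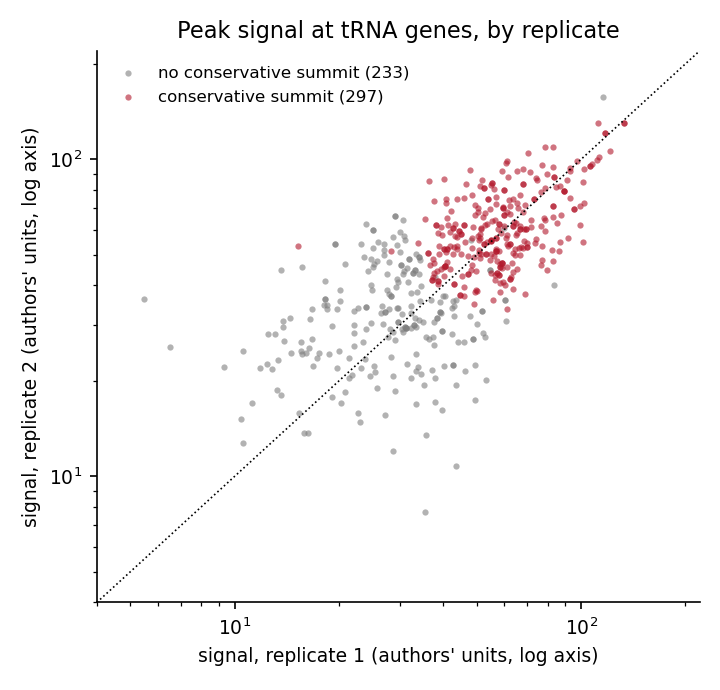
Each point is 1 of 530 tRNA genes, placed by the strongest candidate signal within 500 bp in replicate 1 and in replicate 2 (authors' units, log axes), with the line of equal values dotted. Bound genes lie in the upper right with medians of 57.5 and 57.9, and unbound genes lie lower with medians of 29.1 and 31.0.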

How the data were processed

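D1046.2 ChIP-seq peak lists of 2 biological replicates in 1 group were used. Per the read-me texts deposited with the samples, they are on ce11. No source used here states the aligner, the peak caller or the signal's scale. The deposited signal and the deposited score (-log10 of the global IDR) are the authors' and were used only within a list, except where replicate signals are set side by side. Per the same texts, the thresholded lists derive from 1 input more than the ranked lists, which was not identified. The control library and 1 ranked list were not analysed here. Depth is unknown, since only peak lists were analysed here.

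Genes came from Ensembl release 115 and sequences and isotypes from RefSeq, both WBcel235. An anticodon was assigned where the triplet at its usual place codes for the isotype and at least 4 of 5 stem pairs form, in genes with fewer than 10 differences to another. Differences are edit distances. A gene's signal in a list is that of the strongest region in its window, and its summit position is that of the summit nearest to the gene. Sequences on chromosome I, and those with an identical copy there, are not printed. Members and lists were chosen with earlier results of these data known. Genes named are the 10 with the highest signal, the highest of each isotype, the 5 lowest bound, the 5 highest unbound, and copies of the 3 largest identical sets, with their ties and Y39A1A.t1 as the strongest Thr-AGT copy; genes of 10 or more differences and hosts were named after their values were seen. P-values and intervals cover the counting of genes in these samples only. The test function was tested on simulated data. Alternatives were other lists, windows, ways to share summits, loci, and gene sets. Tools were scipy 1.17.1, numpy 2.4.6, edlib 1.3.9.post1, pandas 2.3.3 and matplotlib 3.10.9 under Python 3.11.15.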

Additional observations from a re-analysis of the deposited data

Results flagged for a closer look

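Y95D11A.t1 (Phe-GAA, chromosome I, 10945821 to 10945893) had the highest candidate signal in the 500 bp window of any tRNA gene, 272 in the joint ranked list, with 116 in replicate 1 and 158 in replicate 2. The candidate summit nearest to the gene lay 349 bp from the 5' end of the 73 bp gene, outside the gene on its downstream side. The lowest IDR in the window was 7.61e-05, well past that of the conservative peaks. The region with that IDR is 1 of 73 such regions that the conservative list does not hold, so the gene was counted as unbound. Why these regions are not in that list was not tested.

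Some genes without a conservative summit had one in a replicate's own thresholded list. There were 3 such genes in the list of replicate 1 only, 14 in that of replicate 2 only and 1 in both. The gene in both lists was F21C3.t1 (Lys-CTT, chromosome I), with signals of 59.8 and 60.7 and no candidate region in the joint list. In replicate 1 only, T01B4.t1 (Val-AAC, chromosome X) had 83.7, with 40.03 in the ranked list of replicate 2. In replicate 2 only, K07A1.t1 (Ser-TGA, chromosome I) had 69.8, and R03E1.t1 and R03E1.t2 shared 66.1, with 29.1 in replicate 1.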

How the results depend on the processing

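With 1 replicate's own list the number of bound genes was 141 to 150 in place of 299, and over the optimal list and the other settings it kept within 1.5 times of 299, with at most 327. The share bound was 44.7% among isolated genes. The median summit position ranged from 19.5 to 37 bp. The excess of repeated over unique sequences passed under 10 other settings, and at 9.71 points did not pass (adjusted Fisher's exact p = 0.168) without genes of 10 or more differences, which was chosen after seeing the data, as were all exclusions of such genes. The excess of clustered genes was -0.947 to 2.18 points in 1 replicate alone, 2.49 with the stronger 50% of peaks, 2.35 with windows of 200 bp, -9.51 with each summit given to its nearest gene only and 9.19 without genes of 10 or more differences, none of them past the threshold (adjusted Fisher's exact p 0.0678 to 1.00). It passed with the optimal list (12.6 points, adjusted Fisher's exact p = 0.0165), with peaks counted when they overlap the window (15.1, p = 0.00104), with windows of 1000 bp (22.002, p = 8.26e-07) and without genes of no isotype (10.6, p = 0.0373).

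Among differences that did not pass, the X chromosome against autosomes turned to -0.543 points with windows of 200 bp, -1.45 with the nearest gene only, -6.14 against chromosome II alone and -15.6 against chromosome III alone. It was 6.71 points over loci (Fisher's exact p = 0.163) and 10.2 in isolated genes (adjusted p = 0.171). Introns against sequence outside genes turned to 1.42 to 1.62 points in 1 replicate alone, 2.67 with the stronger 50% of peaks, 0.551 with the nearest gene only and 1.62 in isolated genes. The B box comparison turned to 1.66 with windows of 200 bp, 1.49 with 1000 bp, 5.23 with the nearest gene only and 3.67 in isolated genes. The cause of these turns was not tested. No paired analysis was possible because there is 1 group. With 2 replicates and no read counts, no spread between animals can be given for any gene.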
